A study of Arabidopsis thaliana with 24 samples.

Results

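Leaves of diploid (2n) Arabidopsis thaliana were compared with leaves of haploid (1n) plants, by RNA sequencing read counts for genes and for transposable elements (TEs, stretches of DNA that can move or once moved in the genome). The comparison rests on 4 libraries, 2 of 2n and 2 of 1n, out of 12 RNA libraries and 24 samples in the series. The count tables hold a pair of columns named 1n and a pair named WT, and the WT columns were taken as 2n because no other labelled group was left for them. The deposited count tables name the diploid plants Col and the haploid 1nCol, and the sample labels give no strain for either. The other 8 RNA libraries belong to DH6, DH9 and DH14, which are doubled-haploid lines, and to sDH, a name that the labels do not spell out. The 12 DNA methylation samples were not analysed here.

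All plants were 2 weeks old and had been grown on soil at 22 °C on a daily cycle of 16 h light and 8 h dark, after stratification of the seed for 2 days at 4 °C. The labels call the tissue seedlings, and the protocol says that RNA came from leaves 6, 7 and 8. Messenger RNA was selected by its poly(A) tail and read in pairs of 150 bp. The protocol calls the libraries of a group biological replicates, without saying whether plants were pooled or sown apart. Neither the way the haploids were made nor the hour of harvest is given in the sources used here. The p-values below measure the spread between libraries only. Except where a fit of the compared libraries alone is named, that spread was pooled over all RNA libraries fitted, doubled-haploid and sDH ones included. Where fewer cells of a type and less RNA per cell would both lower a transcript, counts from whole leaves cannot tell them apart, and RNA per cell was not measured.

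A haploid plant carries 1 set of chromosomes in each body cell where a diploid carries 2. Haploid Arabidopsis plants are viable and are known for small cells and organs and for sterility, because chromosomes find no partner at meiosis. A leaf starts as dividing cells, which then stop dividing, expand, and in many cases copy their DNA further without division (the endocycle). Transcripts of the cell cycle mark the first of these states, and those of the chloroplast dominate the last.

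The 4 libraries held 17276698 and 16484799 gene counts in 1n and 19573672 and 17702742 in 2n. Leaf identity was plain in all of them: RBCS1A, a small subunit of rubisco, stood at 33200 and 30400 CPM (gene counts rescaled to equal library totals) in 1n and 23900 and 24200 CPM in 2n. Markers of other tissues were near 0. Summed over their lists, 7 root markers reached at most 4.17 CPM, 7 flower markers 4.06 CPM, 4 seed markers 0.321 CPM and 6 shoot meristem markers 0.442 CPM in any of the 4 libraries. Of the 6 markers with enough counts to be tested, the flower gene AG fell and no other passed, and that call was lost without 1n library 1 (edgeR adjusted p = 0.281), 2n library 1 (0.0542) or 2n library 2 (0.226), and in a fit of these 4 libraries alone (0.0842). The haploid libraries differed from each other more than any other pair: 881 of 19201 genes tested (4.59%) stood at least 2-fold apart in 1n, 180 (0.937%) in 2n, and 132 to 264 in the other groups. Chi-square per degree of freedom between the libraries of a pair was 24.0 in 1n and 9.83 in 2n, so both pairs differed by more than read sampling. It was 3.96 to 12.9 in the DH6, DH9, DH14 and sDH pairs. The fit over all RNA libraries estimated spread jointly for all groups, so the spread it used can be too small for 1n. Below, values are in CPM scaled by edgeR's TMM factors, library 1 before library 2, and 1n before 2n. A gene is said to have risen or fallen only if the edgeR quasi-likelihood test, adjusted over all genes, gave p under 0.05. Positive log2 changes mean a higher level in 2n.

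The groups differed over much of the transcriptome, in both directions to nearly the same extent. Of 19201 genes tested, 7852 (40.9%) changed, 4040 (21.0%) rose in 2n and 3812 (19.9%) fell. With the fit made on the 4 libraries of 2n and 1n alone, 4399 genes changed, 2233 of them higher in 2n. A change of at least 2-fold was met by 1346 genes that rose (7.01%) and 1417 that fell (7.38%), and one of at least 8-fold by 85 and 194. The median log2 change of all genes tested was 0.00, and that of the genes that rose and fell was 0.73 and -0.77. Every chromosome took part: between 19.9 and 23.0% of the genes tested on each of the 5 chromosomes rose and between 19.6 and 20.5% fell, with medians from -0.01 to 0.03. In 7829 of the genes that changed, the libraries of the groups did not overlap, and 12770 of all genes tested (66.5%) showed no overlap.

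**Figure D1:**
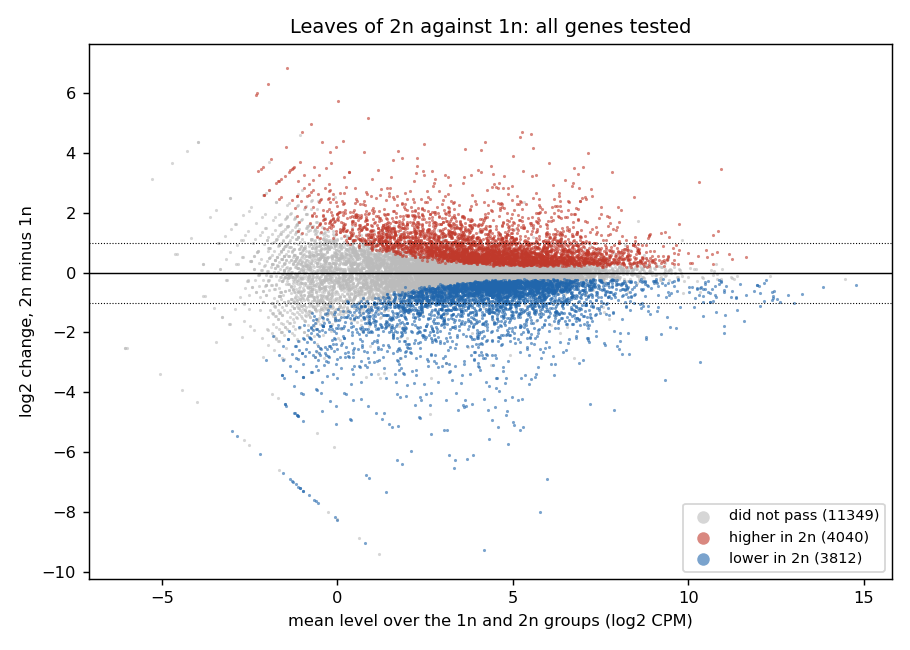
Log2 change of every gene tested (2n minus 1n, vertical) against its mean level over the groups (log2 CPM, horizontal). Red points are the 4040 genes that rose in 2n, blue the 3812 that fell, grey those that did not pass; dotted lines mark a 2-fold change, and genes without a count in the 4 libraries are not drawn.

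Among the 10 genes with the highest and the 10 with the lowest change in 2n, several were barely expressed in 1 group. JMJD5, a histone demethylase-like protein that takes part in the clock, was at 0.727 and 6.32 CPM in 1n and 84.5 and 90.4 CPM in 2n (log2 change 4.65, SE 0.485, edgeR adjusted p = 3.19e-05). COR27, a cold- and clock-regulated gene, was at 0.606 and 9.47 CPM against 92.4 and 87.1 CPM (4.17, SE 0.594). Both had a 1n library 1 far below library 2, and without library 2 their changes were 6.90 and 7.2. ERF13, a stress-responsive ethylene response factor, rose from 0.545 and 2.15 to 24.3 and 23.0 CPM (4.14, SE 0.461), or 5.42 without 1n library 2. CBF4, a relative of the cold-response factors, had 2 counts in the 1n group and 55 in 2n, a ratio of 22.8 with a 95% interval of read sampling from 6.02 to 193.

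At the other end, 3 genes detected in both 1n libraries and in no 2n library were UMAMIT28, of a family of amino acid transporters, PP2-A6, a phloem lectin-like gene, and BBX30, a small B-box protein. UMAMIT28 was at 3.27 and 3.66 CPM in 1n, at least 45.0-fold lower in 2n against a floor of 3 counts in the group (edgeR adjusted p = 0.000218). PP2-A6 was at 2.61 and 1.39 CPM in 1n, so it was at least 26.1-fold lower in 2n against the same floor (edgeR adjusted p = 0.000138). BBX30 was at 1.94 and 0.758 CPM and at least 17.7-fold lower (edgeR adjusted p = 0.000756). CSLA01, of a family of mannan synthases, was at 1.27 and 38.1 CPM in 1n and 0.148 and 0.268 CPM in 2n (-6.54, SE 2.27, edgeR adjusted p = 0.0393). Its call was lost without 1n library 2 (-2.59), 2n library 1 (-6.16) or 2n library 2 (-7.00), and in the 4 libraries alone. Over all genes 158 had a count in both 2n and no 1n library, and 252 the reverse.

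Lists of known genes, chosen with earlier results of these data known, describe where changes lay among their members. A high share in a list is therefore not independent support. For each list the count of members that rose and fell is to be read against 21.0% and 19.9% of all genes tested, and its median against 0.00. The lists hold 882 entries, of which 838 passed the filter on low counts. Lists in which most members tested rose were those of mitosis, ribosomal proteins, histones, DNA replication, ribosome assembly, the evening clock, the stomatal lineage, the kinetochore, starch breakdown and rapid stress factors. Lists in which most fell were aliphatic glucosinolates, light harvesting, the morning clock, photorespiration, light signalling, the Calvin cycle and the PIF and auxin group. Where only the 4 libraries of 2n and 1n were fitted, 12.1% of all genes tested rose and 11.7% fell, and 22 of 53 lists had counts that differed by over 1.5 times. Stomatal lineage (6 of 15), starch breakdown (6 of 18) and kinetochore (3 of 6) then no longer had most of their members called. Nor did aliphatic glucosinolates (6 of 12 lower), the Calvin cycle (10 of 20 lower) or the PIF and auxin group (9 of 19 lower). Of 224 genes and TEs chosen by a fixed rule and tested in this fit, 23 lost their call, and for those described below the loss is given with their values.

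**Figure D2:**
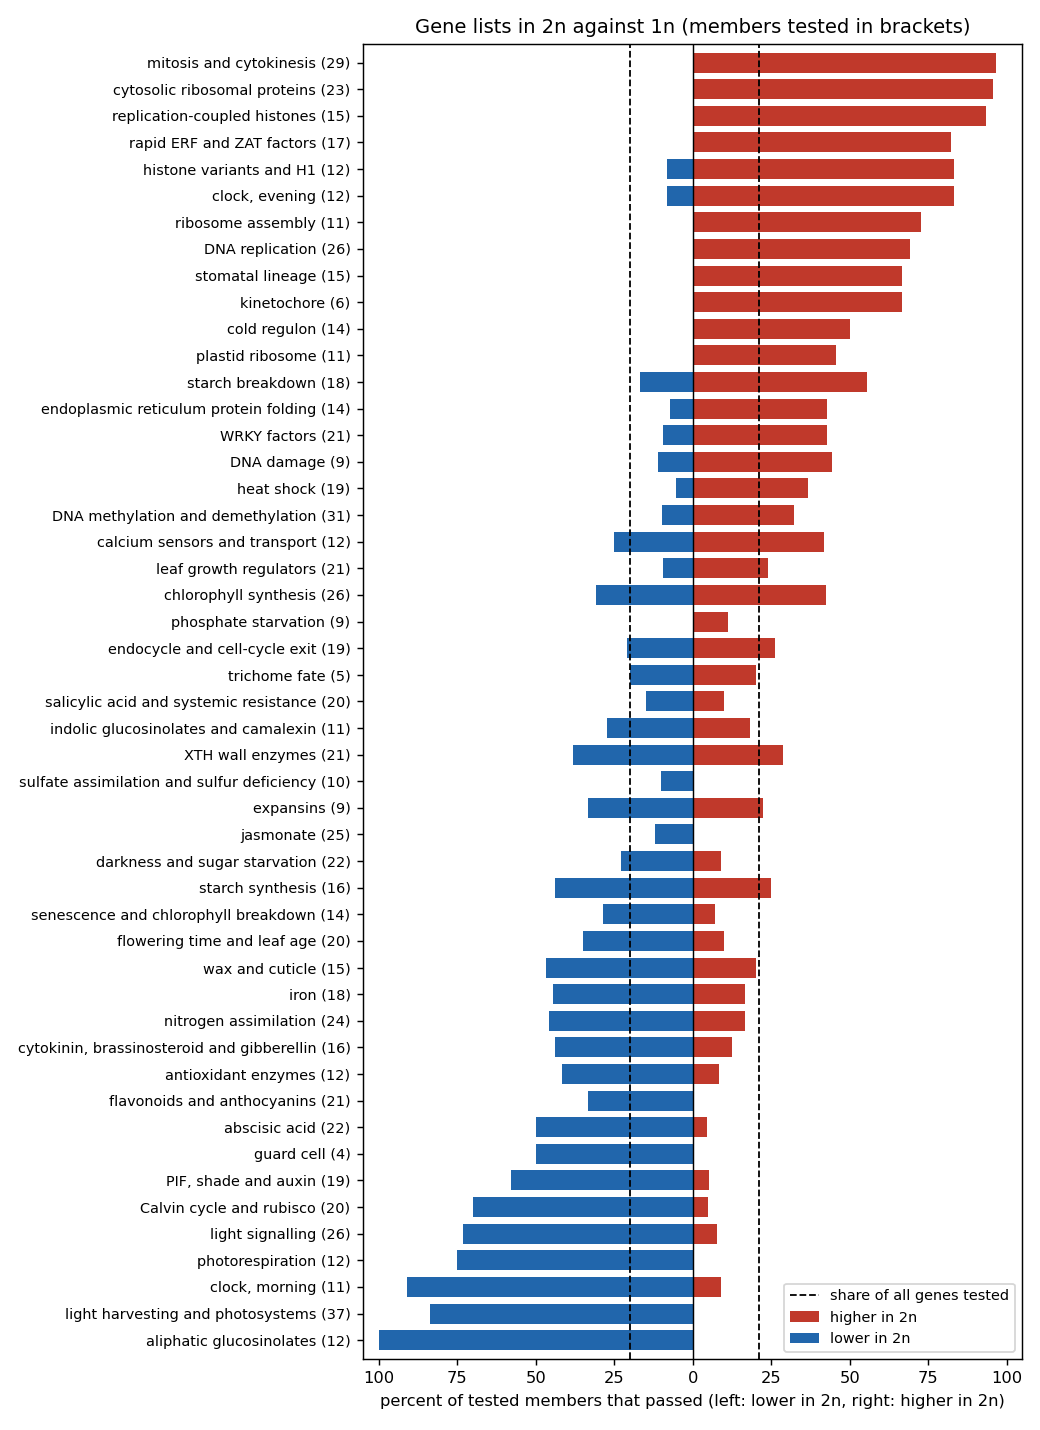
Percent of the tested members of each list that rose (red, to the right) or fell (blue, to the left) in 2n against 1n, with the number tested in brackets. Dashed lines give the shares of all genes tested, 21.0% to the right and 19.9% to the left; mitosis, ribosomal proteins and histones reach farthest to the right and aliphatic glucosinolates, light harvesting and the morning clock farthest to the left.

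Among all lists, the morning genes of the circadian clock had the median farthest from 0. The clock is a loop in which morning factors such as CCA1 hold down evening genes, and evening genes in turn hold down morning ones. Of 11 morning genes tested, 10 fell and 1 rose, with a median log2 change of -4.43. Of 12 evening genes, 10 rose and 1 fell, with a median of 2.24. PRR9, the earliest repressor of the day, was at 41.9 and 36.7 CPM in 1n and 0.887 and 0.749 CPM in 2n (log2 change -5.57, SE 0.216, edgeR adjusted p = 6.68e-08). LNK2, a coactivator working with RVE8, was at 566 and 338 CPM against 18.5 and 18.7 CPM (-4.60, SE 0.223, edgeR adjusted p = 2.29e-07). For both genes each 1n library stood more than 10-fold above each 2n library. RVE4, a weaker activator of the RVE8 family, fell from 65.4 and 59.4 to 21.0 and 20.4 CPM.

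On the evening side GRP7, an RNA-binding protein under clock control, rose from 248 and 399 CPM to 3620 and 3480 CPM (log2 change 3.46, SE 0.205, edgeR adjusted p = 8.54e-07). TOC1, the evening repressor of CCA1 and LHY, was at 31.0 and 49.7 CPM in 1n and 170 and 192 CPM in 2n (2.17, SE 0.182). LUX, a DNA-binding part of the evening complex, went from 10.1 and 13.4 to 59.6 and 56.0 CPM, and GI, a partner of the photoperiod sensor FKF1, from 46.6 and 57.1 to 108 and 95.9 CPM. The 2n libraries of each of these genes lay close together. The morning-list gene that rose was RVE2, from 3.45 and 9.35 to 48.6 and 43.4 CPM, and the evening-list gene that fell was the photoreceptor ZTL, from 32.7 and 35.9 to 28.9 and 25.7 CPM (edgeR adjusted p = 0.0228). ZTL no longer passed without 1n library 2 (edgeR adjusted p = 0.116), without 2n library 2 (0.133) or in the 4 libraries alone (0.125). RVE2 rose further without 1n library 2 (log2 change 3.73 in place of 2.85). The haploid libraries were themselves apart in the clock: summed morning transcripts were between 960 and 1450 CPM and evening ones between 536 and 823 CPM, against 214 to 226 and 4500 to 4710 CPM in 2n. Harvest hour, which the labels do not give, was not tested as a part of this or any later result.

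Most genes of light signalling were lower in 2n as well. Of 26 tested, 19 fell and 2 rose, with a median log2 change of -1.49. COL1, a B-box relative of CONSTANS, was at 55.0 and 30.8 CPM in 1n and 2.07 and 1.77 CPM in 2n (log2 change -4.48, SE 0.285, edgeR adjusted p = 1.22e-06). STH, another B-box factor, was at 74.5 and 45.3 CPM against 3.99 and 2.62 CPM (-4.17, SE 0.273). The blue light receptor CRY1 fell from 221 and 268 to 95.2 and 109 CPM, and SPA1, which works with COP1 in the dark to remove light factors, from 95.3 and 96.1 to 39.3 and 45.1 CPM. HY5, the central activator of light responses, did not pass (6.85 and 4.04 CPM against 4.34 and 3.53 CPM, edgeR adjusted p = 0.208), but fell without 1n library 2 (-0.80, edgeR adjusted p = 0.0411). CO, the photoperiod activator of flowering, rose from 0.667 and 0.695 to 2.61 and 3.1 CPM (2.06, SE 0.372, edgeR adjusted p = 0.00126).

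Flowering and leaf age genes fell more often than they rose, 7 against 2 of 20 tested. In the 4 libraries alone 6 of 19 fell and none rose. Among the falling ones were RAP2.7, an AP2-type repressor of flowering (log2 change -1.29, SE 0.119), and SVP, a repressor of the MADS family (92.5 and 117 CPM against 59.0 and 50.4 CPM, -0.93). AGL20, also known as SOC1, promotes flowering and fell too, from 54.0 and 78.1 to 29.7 and 26.6 CPM (-1.23, edgeR adjusted p = 0.000205). FLC, the repressor removed by winter cold, was barely detected, with 1 count in the 1n group and 27 in 2n. Its count ratio was 22.4 with a 95% interval of read sampling from 3.69 to 917, and its call was lost without 1n library 1 (edgeR adjusted p = 0.057). Without 1n library 2 its fitted log2 change was 6.76 in place of 4.22. FT, the mobile flowering signal, and its relative TSF had too few counts to be tested.

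Cell division was the side of leaf growth on which the groups stood farthest apart, with higher levels in 2n. In mitosis and cytokinesis 28 of 29 genes rose and none fell, with a median log2 change of 1.74, and 26 of them at least doubled. CDKB2;1, a kinase made only around mitosis, was at 7.76 and 6.38 CPM in 1n and 23.3 and 19.3 CPM in 2n (log2 change 1.59, SE 0.135, edgeR adjusted p = 7.7e-06). CYCB2;1, a mitotic cyclin, was at 0.303 and 0.379 CPM against 3.01 and 1.98 CPM (2.85, SE 0.414), the largest change of the list. The spindle kinase AUR1 went from 4.67 and 4.86 to 13.2 and 12.6 CPM, and the spindle factor TPX2 from 5.82 and 6.76 to 22.0 and 21.3 CPM. For all 4 genes no library of one group reached the range of the other, as for 66.5% of all genes tested. The gene that did not pass was MYB3R1, one of the factors that drive the mitotic set (26.6 and 17.3 CPM against 24.1 and 27.1 CPM, edgeR adjusted p = 0.384), though it rose without 1n library 1 (0.57, edgeR adjusted p = 0.0269). Summed over the list, mitotic transcripts amounted to 178 to 184 CPM in 1n and 521 to 556 CPM in 2n.

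Replication genes followed with smaller changes. Of 26 tested, 18 rose and none fell, with a median of 0.83. RNR1, the large subunit of the enzyme that makes deoxyribonucleotides, was at 53.1 and 51.2 CPM in 1n and 143 and 141 CPM in 2n (log2 change 1.45, SE 0.0986, edgeR adjusted p = 1.89e-06). TK1A, a thymidine kinase, rose from 7.15 and 8.97 to 26.8 and 23.1 CPM, and CDC45, a part of the replicative helicase, from 3.57 and 3.66 to 8.87 and 8.78 CPM. All 6 MCM helicase subunits rose, by 0.67 to 1.13 on the log2 scale. The licensing factor CDC6 did not pass and showed the gap between the haploid libraries (6.2 and 18 CPM against 10.4 and 9.69 CPM). Without 1n library 1 it fell (-0.80, edgeR adjusted p = 0.00246), and without 1n library 2 it rose (0.70, edgeR adjusted p = 0.0123).

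Histones, which package newly made DNA, rose almost throughout: 14 of 15 genes of the kinds made during replication, with a median of 0.81. Of the H4 genes listed, only HIS4 had a matching name and was kept. HTA13, an H2A gene, was at 16.4 and 13.3 CPM in 1n and 48.0 and 37.9 CPM in 2n (log2 change 1.53, SE 0.149, edgeR adjusted p = 1.95e-05). HTR9, an H3.1 gene, rose from 25.3 and 18.0 to 52.4 and 49.8 CPM. Of the variants and linker histones 10 of 12 rose and 1 fell, or 7 and 0 in the 4 libraries alone. HIS1-3 was the only linker gene among them, because H1.1 and H1.2 had no matching name. HTA11 and HTA9, which encode H2A.Z, the variant found at gene starts, rose by 1.36 and 0.73 on the log2 scale. HTA7 and HTA6 encode H2A.W, the variant of heterochromatin, and rose by 1.34 and 1.04. Their relative HTA12 fell (4.42 and 6.38 CPM against 3.74 and 2.57 CPM, edgeR adjusted p = 0.0266), a call lost without 1n library 2 (0.195), without 2n library 2 (0.168) and in the 4 libraries alone (0.122). Histone genes are near-identical copies, and how reads with several hits were counted is not given in the sources used here, so single histone genes are less certain than the list.

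Protein synthesis genes rose by small but even steps. Among cytosolic ribosomal proteins 22 of 23 rose and none fell, with a median of 0.55, and none reached 2-fold. RPL3A, a core protein of the large subunit, was at 460 and 412 CPM in 1n and 836 and 764 CPM in 2n (log2 change 0.88, SE 0.0825, edgeR adjusted p = 1.59e-05). Its copy RPL3B did not pass and lay in the other direction (46.2 and 30.1 CPM against 31.5 and 26.1 CPM, edgeR adjusted p = 0.0727), and it fell without 1n library 2 (-0.68, edgeR adjusted p = 0.00106). Of 11 genes of ribosome assembly 8 rose and none fell. NUC1, a nucleolin that acts in ribosomal RNA synthesis, went from 275 and 300 to 643 and 632 CPM (1.15, SE 0.0911), and NAP57, the enzyme that pseudouridylates ribosomal RNA, from 56.9 and 58.7 to 120 and 120 CPM.

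Regulators of the exit from division were mixed, 5 higher and 4 lower of 19, close to the shares of all genes. CCS52B, an activator of the anaphase-promoting complex made around mitosis, rose from 6.67 and 8.40 to 21.1 and 19.9 CPM (log2 change 1.44, SE 0.138). DEL1, which holds back the endocycle, rose from 3.70 and 2.65 to 6.55 and 6.96 CPM. The kinase inhibitors KRP6 and SIM, the latter a promoter of the endocycle in trichomes, fell by 1.02 and 0.63 on the log2 scale. SIM was not called without 1n library 2 (edgeR adjusted p = 0.0591), without 2n library 2 (0.0985) or in the 4 libraries alone (0.0794). Without 1n library 1 the list held 5 calls, without 2n library 2 it held 4, and in the 4 libraries alone 2 members rose and 1 fell.

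Of 21 leaf growth regulators tested 5 rose and 2 fell. Those that rose included GRF4, a growth-regulating factor that keeps young leaf cells dividing, at 4.97 and 4.29 CPM in 1n and 15 and 12.6 CPM in 2n (log2 change 1.57, SE 0.143, edgeR adjusted p = 1.26e-05). GRF5, of the same family, had 2 counts in the 1n group and 30 in 2n, a ratio of 12.4 with a 95% interval of read sampling from 3.16 to 107. ANT, which prolongs division in organs, rose from 6.67 and 8.53 to 14.2 and 15.5 CPM. TCP10, a class that ends division, fell from 51.4 and 45.3 to 30.5 and 29.3 CPM (-0.69, SE 0.101). GRF1, GRF2 and GRF3, and the partner GIF1, did not pass.

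Genes of the stomatal lineage, whose precursor cells keep dividing in young leaves, were also higher in 2n: 10 of 15 rose and none fell, median 0.57, and 6 rose in the 4 libraries alone. SPCH, the factor that starts the lineage, was at 3.09 and 2.15 CPM in 1n and 7.93 and 5.40 CPM in 2n (log2 change 1.35, SE 0.258, edgeR adjusted p = 0.00179). TMM, a receptor-like protein that spaces stomata, rose from 7.88 and 7.39 to 22.0 and 17.4 CPM, and the protease SDD1 from 5.21 and 4.36 to 16.9 and 15.3 CPM. FMA, which acts at the last division, did not pass (26.7 and 21.2 CPM against 27.0 and 24.8 CPM). Markers of mature guard cells did not rise with them: of 4 tested, MYB60 and KAT1 fell by 0.72 and 0.43 on the log2 scale and HT1 and SLAC1 did not pass. KAT1 was not called without 1n library 2 (edgeR adjusted p = 0.0713), without 2n library 1 (0.112) or in the 4 libraries alone (0.115), and HT1 was called lower without 1n library 2 (0.0231). Among 5 trichome fate genes GL2, a regulator of hair growth, rose (1.24) and TRY, an inhibitor of hair fate, fell (-3.25).

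**Figure D3:**
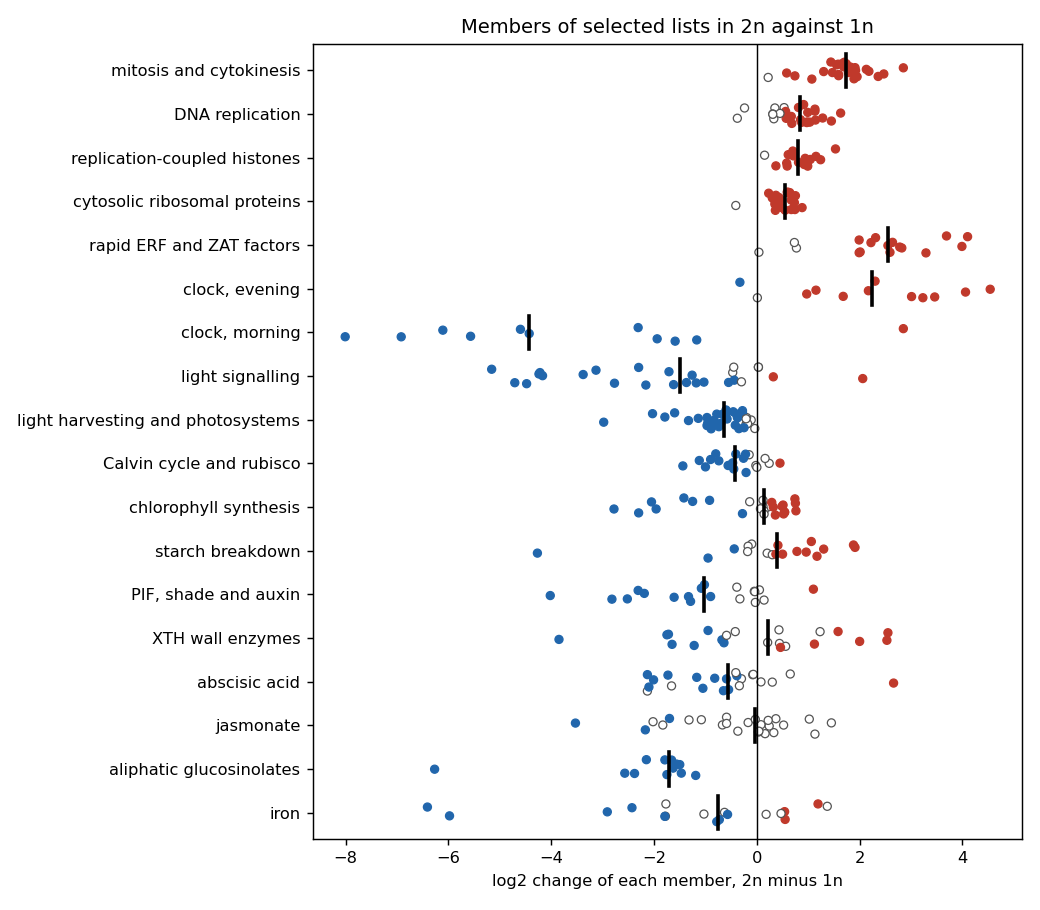
Log2 change (2n minus 1n) of every tested member of 18 lists; red points rose, blue fell, open points did not pass, and black bars are list medians. Most mitosis, replication, histone and ribosomal protein genes lie to the right of 0 in tight groups, most morning clock and light signalling genes to the left, and wall enzymes and jasmonate genes on both sides.

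Wall-loosening genes moved in both directions. Expansins, proteins that loosen cell walls in growing cells, fell in 3 and rose in 2 of 9 cases, or in 2 and 1 in the 4 libraries alone. EXPA1, the expansin with the largest change, was at 266 and 155 CPM in 1n and 30.0 and 21.7 CPM in 2n (log2 change -3.02, SE 0.273, edgeR adjusted p = 1.15e-05). Of 21 XTH genes, whose enzymes cut and rejoin xyloglucan, 6 rose and 8 fell. XTH9 rose from 55.6 and 33.2 to 259 and 261 CPM (2.55, SE 0.198, edgeR adjusted p = 4.4e-06), and XTH16 from 23.3 and 15.5 to 56.8 and 59.2 CPM. XTH31 fell from 52.2 and 34.0 to 3.55 and 2.41 CPM (-3.85, SE 0.253), and XTH7 from 73.0 and 41.0 to 17.0 and 16.9 CPM. These 5 genes were taken by a rule that asked for no overlap between the groups, which 66.5% of all genes tested showed.

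Hormone and shade genes tied to cell expansion fell in 2n more often than they rose. PIF factors are light-labile activators of elongation, and IAA genes are early targets of auxin. Of 19 genes of that group, 11 fell and 1 rose, with a median of -1.02. In the 4 libraries alone 9 fell and 1 rose. PIF5 was at 160 and 205 CPM in 1n and 44.9 and 35.1 CPM in 2n (log2 change -2.19, SE 0.135, edgeR adjusted p = 1.03e-06). PIF4 fell from 141 and 197 to 62.3 and 48.2 CPM, PIF1 from 37.9 and 37.5 to 19.7 and 17.5 CPM, and PRE1, a small growth-promoting factor, from 11.8 and 9.60 to 2.56 and 1.71 CPM. PIF3 did not pass (0.14). In the list of cytokinin, brassinosteroid and gibberellin 7 of 16 fell and 2 rose, or 5 and 2 of 14 in the 4 libraries alone. The type-A response regulators, quick targets of cytokinin, led these: ARR7 was at 34.2 and 29.8 CPM against 13.9 and 13.0 CPM (-1.25, SE 0.106, edgeR adjusted p = 7.63e-06), and ARR4, ARR6 and ARR8 fell by 1.19, 3.11 and 1.55. GA2OX2, which inactivates gibberellin, rose from 3.39 and 6.06 to 13.6 and 16.5 CPM.

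Nuclear genes of photosynthesis were lower in 2n over most of their lists. Of 37 genes of light harvesting and the photosystems 31 fell and none rose, with a median log2 change of -0.64. Antenna genes of photosystem II showed both the largest falls and some of the smallest. LHCB4.2, a minor antenna protein, was at 2500 and 2600 CPM in 1n and 1090 and 938 CPM in 2n (log2 change -1.33, SE 0.0778, edgeR adjusted p = 7.53e-07). LHCB2.1, part of the mobile antenna, was at 3460 and 3230 CPM against 916 and 718 CPM (-2.03, SE 0.102). LHCB5 did not pass (4810 and 5800 CPM against 5230 and 4620 CPM, edgeR adjusted p = 0.381), nor did LHCB1.3 (-0.21, edgeR adjusted p = 0.0762). LHCB5 was called lower without 1n library 1 (-0.23, edgeR adjusted p = 0.0405), and LHCB1.3 without 1n library 1 (0.0113) or 2n library 1 (0.0418). LHCB1 and LHCB2 genes are close copies, and the sources used here do not say how reads with several hits were counted, so single members are less certain; the reads they share were not measured. Together the list took between 162000 and 178000 CPM in 1n and between 105000 and 120000 CPM in 2n.

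In the Calvin cycle 14 of 20 fell and 1 rose, or 10 and 1 in the 4 libraries alone. RBCS1A, given above, was one that fell (-0.41), and its call was lost in the 4 libraries alone (edgeR adjusted p = 0.0545). FBA1, a plastid aldolase, went from 2290 and 1700 to 765 and 701 CPM (log2 change -1.44, SE 0.118), and its partner FBA2 from 6100 and 5470 to 2760 and 2560 CPM. GAPB, a subunit of the reducing dehydrogenase, fell from 3200 and 2770 to 1710 and 1720 CPM, while GAPA did not pass (-0.15, edgeR adjusted p = 0.0733). The gene that rose was the transketolase TKL1, from 2150 and 1960 to 2820 and 2790 CPM (0.45, SE 0.0683). Photorespiration, which salvages carbon when rubisco takes up oxygen, had 9 of 12 lower and none higher. CAT2, the peroxisomal catalase of that pathway, was at 1430 and 938 CPM in 1n and 107 and 91.2 CPM in 2n (-3.58, SE 0.184, edgeR adjusted p = 3.52e-07). CAT3, a catalase that peaks late in the day, lay the other way, at 640 and 1320 CPM against 2280 and 2400 CPM (1.26, SE 0.255). Its change was 1.87 without 1n library 2. In the list of antioxidant enzymes, which holds CAT3, that gene alone of 12 rose and 5 fell. Without 2n library 2, and in the 4 libraries alone, 1 rose and 2 fell.

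Chlorophyll synthesis was split, with 11 of 26 higher, 8 lower and a median of 0.14. Those that fell at least 2-fold were HEMA1, which makes the committed precursor, the chelatase subunit GUN5 and its helper GUN4, the cyclase CRD1, the chlorophyll b enzyme CH1, and the regulator GLK2. CH1 was at 448 and 433 CPM in 1n and 95.0 and 83.7 CPM in 2n (log2 change -2.30, SE 0.0988, edgeR adjusted p = 1.55e-07), and HEMA1 at 741 and 1190 CPM against 232 and 235 CPM (-2.05, SE 0.175). None of those that rose reached 2-fold. Among them were the aminotransferases GSA1 and GSA2 (0.74 and 0.75) and the light-dependent reductase PORB (868 and 1280 CPM against 1920 and 1720 CPM, 0.76). Ribosomal proteins of the plastid rose in 5 of 11 cases and fell in none. Without 1n library 1, 10 of them rose, without 1n library 2 or 2n library 1, 3 did, and in the 4 libraries alone, 2 did.

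Starch genes were split by direction. Of 18 genes of starch breakdown 10 rose and 3 fell (6 and 0 in the 4 libraries alone), and of 16 of its synthesis 4 rose and 7 fell. PWD, a kinase that phosphorylates starch to open it for breakdown, was at 69.6 and 103 CPM in 1n and 298 and 350 CPM in 2n (SE 0.16 around a log2 change of 1.91, edgeR adjusted p = 7.04e-06). The debranching enzyme ISA3 rose from 32.0 and 47.4 to 145 and 148 CPM, and the plastid amylase AMY3 from 145 and 188 to 332 and 364 CPM. GBSS1, which makes amylose, was at 112 and 39.3 CPM in 1n and 2.66 and 1.55 CPM in 2n (-5.16, SE 0.51, edgeR adjusted p = 2.24e-05), or -4.21 without 1n library 1. Many starch transcripts, that of GBSS1 among them, cycle daily in Arabidopsis, and a link to the clock genes given above was not tested.

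Nitrogen assimilation was lower for 11 of 24 genes and higher for 4. NIA2, the main nitrate reductase, was at 920 and 1270 CPM in 1n and 269 and 354 CPM in 2n (SE 0.156 around a log2 change of -1.82, edgeR adjusted p = 8.3e-06). The ammonium transporter AMT1;1 rose from 82.1 and 83.9 to 193 and 230 CPM (1.35, SE 0.0925). Genes that respond to darkness and sugar shortage rose in 2 and fell in 5 of 22 cases, or in 1 and 3 of 21 in the 4 libraries alone. ASN1, the asparagine synthetase of darkened leaves, was low in both groups and fell from 22.7 and 28.9 to 2.91 and 5.35 CPM (-2.65, edgeR adjusted p = 0.000146), and BZIP53, a factor of low-energy signalling, rose from 23.9 and 35.8 to 92.3 and 93.3 CPM.

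Rapid stress transcription factors formed the other group with high levels in 2n. ERF and ZAT genes switch on within minutes of touch, wounding, cold or pathogen signals. Of 17 tested 14 rose, each at least 2-fold, and none fell, with a median log2 change of 2.55. ERF5 was at 3.94 and 5.75 CPM in 1n and 37.2 and 29.4 CPM in 2n (log2 change 2.78, SE 0.229, edgeR adjusted p = 6.44e-06). ZAT12 was at 4.73 and 11.5 CPM against 52.2 and 48.4 CPM (2.64, SE 0.374), and its change was 3.41 without 1n library 2. The 3 genes that did not pass were ERF2, DREB26 and CEJ1, of which DREB26 (1.47, edgeR adjusted p = 0.0407) and CEJ1 (1.94, edgeR adjusted p = 0.0292) rose without 1n library 2. Haploid library 2 was the higher of the pair: against it the list median was 1.86, and against library 1 it was 2.93.

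WRKY factors rose in 9 and fell in 2 of 21 cases, with a median of 1.12 against 1n library 1 and 0.53 against library 2. WRKY70, which acts in salicylic acid signalling, was at 100 and 157 CPM in 1n and 359 and 386 CPM in 2n (log2 change 1.54, SE 0.232, edgeR adjusted p = 0.000395), and WRKY46 at 19.7 and 21.5 CPM against 51.7 and 67.4 CPM. WRKY17, a negative regulator of defence, fell from 27.4 and 23.5 to 13.1 and 13.3 CPM (-0.95, SE 0.119). Among 12 calcium genes 5 rose and 3 fell. The sensors CML24, also known as TCH2, and CML23 rose by 1.69 and 2.42 on the log2 scale. The sensor CML9 (107 and 110 CPM against 42.9 and 44.9 CPM) and the vacuolar exchangers CAX1 and CAX3 fell. CAX3 was at 27.6 and 33.2 CPM against 6.6 and 2.3 CPM (-2.76), or -3.72 without 2n library 1.

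Salicylic acid defence as a whole did not follow these factors. Of 20 genes 2 rose and 3 fell, with a median of 0.04. PR1, the usual marker of this defence, was at 166 and 466 CPM in 1n and 137 and 77.6 CPM in 2n and did not pass (log2 change -1.55, SE 0.657, edgeR adjusted p = 0.0844). It fell without 1n library 1 (-2.11, edgeR adjusted p = 0.0169). PR5 overlapped between the groups (218 and 340 CPM against 295 and 192 CPM, edgeR adjusted p = 0.667). NIMIN1, which binds the receptor NPR1, rose from 5.33 and 3.85 to 12.1 and 15.7 CPM (1.59, edgeR adjusted p = 0.0039). Without 1n library 2 the list held 6 genes that rose and 2 that fell, without 2n library 2 it held 1 each, and in the 4 libraries alone 2 rose and 1 fell.

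Jasmonate genes showed the gap between the haploid libraries most plainly. The hormone is made by LOX, AOS and AOC enzymes in response to wounding, and JAZ proteins repress its targets. Summed over 25 genes the level was 1000 CPM in one 1n library and 3670 CPM in the other, with 2n at 1240 to 1800 CPM between them. LOX2, the leaf lipoxygenase, was at 492 and 1750 CPM in 1n and 563 and 847 CPM in 2n and did not pass (log2 change -0.67, edgeR adjusted p = 0.46). The storage protein gene VSP2 was at 1.82 and 107 CPM in 1n and 1.33 and 50.5 CPM in 2n, so the pair of 2n libraries was apart as well. In all 3 genes fell and none rose: the synthesis gene AOC1 and the repressors JAZ3 and JAZ6. Without 1n library 1, 5 members fell, and without 1n library 2, 5 rose and 1 fell. Without 2n library 1 the calls of AOC1 (edgeR adjusted p = 0.21), JAZ3 (0.0757) and JAZ6 (0.0571) were lost. In the 4 libraries alone the calls of AOC1 (edgeR adjusted p = 0.0622) and JAZ3 (0.0685) were lost.

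**Figure D4:**
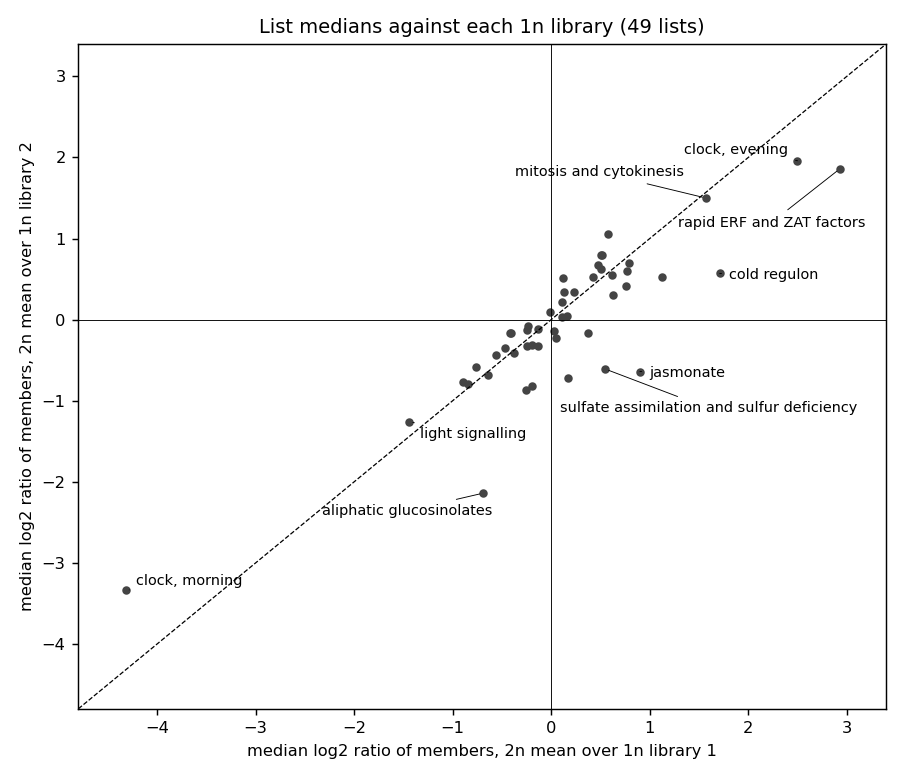
Median log2 ratio of the 2n mean over 1n library 1 (horizontal) and over 1n library 2 (vertical) for the members tested of 49 lists; the dashed line marks equal medians. Clock, mitosis, light signalling and rapid factors lie in the same quadrant against either library, while jasmonate (0.90 and -0.64) and sulfate genes (0.55 and -0.61) lie on opposite sides of 0.

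The same split touched other lists. The 12 genes tested for aliphatic glucosinolates, sulfur compounds that deter feeding insects, were all lower in 2n, each at least 2-fold, with a median of -1.70. The median was -0.69 against 1n library 1 and -2.14 against library 2. In the 4 libraries alone 6 of the 12 fell. MYB29, a regulator of the pathway, differed little between the haploid libraries (26.5 and 31.6 CPM against 6.46 and 4.71 CPM, SE 0.183 around a log2 change of -2.38, edgeR adjusted p = 4.06e-06). The enzyme gene MAM1 differed much (90.0 and 318 CPM against 72.3 and 74.3 CPM, -1.47, edgeR adjusted p = 0.0166). MAM1 was at -2.11 without 1n library 1. It was no longer called without 1n library 2 (-0.30, edgeR adjusted p = 0.281), 2n library 1 (0.0845) or 2n library 2 (0.0752), or in the 4 libraries alone (0.101). Indolic glucosinolates and camalexin had 2 of 11 higher and 3 lower, with a median of 0.17 against 1n library 1 and -0.72 against library 2. PAD3, the last enzyme of the antifungal compound camalexin, rose from 6.24 and 4.67 to 32.7 and 47.5 CPM (2.87, SE 0.375), and MYB34, a regulator of indolic glucosinolates, fell from 18.7 and 18.6 to 6.85 and 4.50 CPM (-1.71, SE 0.29). That list held 9 calls without 1n library 1 and 3 without 2n library 2, and in the 4 libraries alone 1 rose and 2 fell.

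Cold-regulated genes rose in 7 of 14 cases and fell in none, with a median of 1.17. KIN2, a small hydrophilic protective protein, was at 69.3 and 134 CPM in 1n and 501 and 377 CPM in 2n (log2 change 2.11, SE 0.29, edgeR adjusted p = 0.000207). WCOR413, a membrane protein of cold-treated plants, rose from 87.9 and 129 to 290 and 227 CPM. Without 1n library 2, 12 of the 14 rose, and in the 4 libraries alone 4 did. The median was 1.71 against 1n library 1 and 0.57 against library 2. Heat shock genes rose in 7 and fell in 1 of 19, with log2 changes of members from -2.94 to 4.71. The highest was that of DREB2A, at 2.36 and 3.28 CPM in 1n and 110 and 38.1 CPM in 2n. Summed over the list, levels were 115 to 119 CPM in 1n and 166 to 360 CPM in 2n, so the 2n libraries lay apart. HSFB2B, a repressor-type heat-shock factor, went from 9.33 and 6.63 to 20.7 and 16.4 CPM (1.22, SE 0.194). The chaperone genes HSP101, HSP90.1 and HSP70 did not pass, and HSP70 was at 25.8 and 4.87 CPM in the 2n libraries. HSP101 (0.98, edgeR adjusted p = 0.0316) and HSP70 (2.26, edgeR adjusted p = 0.00235) rose without 2n library 2, and HSP90.1 without 1n library 1 (0.79, edgeR adjusted p = 0.0488). Without 2n library 1, and in the 4 libraries alone, the list held 4 genes that rose and 1 that fell. Chaperones of the endoplasmic reticulum rose in 6 of 14 cases, led by BIP2 (242 and 181 CPM against 345 and 386 CPM, 0.79), and fell in 1; without 2n library 1, 4 rose, and in the 4 libraries alone 2 did.

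Abscisic acid genes fell in 11 of 22 cases and rose in 1, with a median of -0.57. The median was -0.19 against 1n library 1 and -0.82 against library 2, and in the 4 libraries alone 6 of 21 fell and 1 rose. The hormone closes stomata and acts in drought. ABA1, the epoxidase early in its synthesis, was at 515 and 470 CPM in 1n and 119 and 126 CPM in 2n (log2 change -2.01, SE 0.0891, edgeR adjusted p = 1.66e-07). ABF3, a factor that drives its targets, fell from 44.7 and 36.8 to 10.2 and 8.72 CPM, and HAB1, a phosphatase that dampens the response, from 30.5 and 28.5 to 7.54 and 5.94 CPM. The gene that rose was CYP707A3, which breaks the hormone down, from 7.09 and 20.5 to 96.2 and 77.9 CPM (2.66, or 3.62 without 1n library 2). Wax and cuticle genes fell in 7 and rose in 3 of 15, or in 5 and 0 in the 4 libraries alone. CER3, an enzyme of alkane wax synthesis, was at 58.0 and 56.0 CPM against 35.1 and 34.2 CPM (-0.72, SE 0.104, edgeR adjusted p = 0.0003).

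Flavonoid and anthocyanin genes fell in 7 of 21 cases and rose in none, with a median of -0.26 against 1n library 1 and -0.87 against library 2. TT4, chalcone synthase at the start of the pathway, was at 209 and 110 CPM in 1n and 38.5 and 29.8 CPM in 2n (log2 change -2.22, SE 0.259, edgeR adjusted p = 6.83e-05). PAL2, which supplies the precursor, fell from 95.6 and 92.3 to 32.6 and 34.3 CPM. The late anthocyanin gene DFR lay at 0.485 and 11.4 CPM in 1n, with 2n at 1.58 and 3.1 CPM between them. It did not pass (edgeR adjusted p = 0.243), fell without 1n library 1 (-2.29, 0.00165) and rose without 1n library 2 (2.25, 0.0368). Without 1n library 1, 12 members fell and 1 rose, and without 1n library 2, 8 fell and 4 rose. In senescence and chlorophyll breakdown 1 of 14 rose and 4 fell. NYC1, a chlorophyll b reductase, rose from 82.0 and 103 to 344 and 320 CPM (1.85, SE 0.128, edgeR adjusted p = 2.08e-06), and without 2n library 2 that list held 1 rise and 2 falls. In the 4 libraries alone it held 1 of each.

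Among nutrients, iron showed clear differences. Of 18 genes 8 fell and 3 rose. FRO7, an iron reductase of the chloroplast, was at 247 and 201 CPM in 1n and 28.2 and 31.3 CPM in 2n (log2 change -2.91, SE 0.12, edgeR adjusted p = 1.13e-07). Its neighbour in the family FRO6 fell from 347 and 319 to 57.7 and 66.3 CPM (-2.43, SE 0.0891). NAS3, which makes the metal carrier nicotianamine, had 229 counts in the 1n group and 3 in 2n, a ratio of 92.0 with a 95% interval of read sampling from 31.1 to 449. The ferritin FER3, an iron store, rose from 43.7 and 43.8 to 108 and 91.7 CPM. Of 9 phosphate starvation genes 1 rose, the lipid enzyme gene MGDC at 0.424 and 0.189 CPM against 1.82 and 0.91 CPM (edgeR adjusted p = 0.0159). Its call was lost without 1n library 2 (0.0931), without 2n library 1 (0.132) and in the 4 libraries alone (0.056), and its change was 2.82 without 1n library 1. Of 10 sulfate genes 1 fell, APR2, the reductase of sulfate assimilation (211 and 157 CPM against 48.8 and 61.4 CPM, -1.74, SE 0.199). Without either 1n library that list held 4 calls, 1 rise and 3 falls without library 1, and 3 rises and 1 fall without library 2.

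Of 31 genes of DNA methylation and demethylation 10 rose and 3 fell, with a median of 0.28. MET1, which copies CG methylation after replication, was at 47.4 and 44.4 CPM in 1n and 69.6 and 82.4 CPM in 2n (log2 change 0.73, SE 0.117, edgeR adjusted p = 0.000593). Its partner VIM1 rose from 23.3 and 20.4 to 43.3 and 46.3 CPM, and CMT3, which maintains CHG methylation, from 21.9 and 20.9 to 40.1 and 42.8 CPM. CMT2 and DRM2, methyltransferases of non-CG sites, did not pass. CMT2 fell without 1n library 1 (-0.53, edgeR adjusted p = 0.015). The demethylases ROS1 and DML3 went opposite ways, ROS1 from 56.8 and 51.8 to 77.0 and 85.9 CPM (0.58) and DML3 from 11.8 and 13.1 to 3.35 and 4.50 CPM (-1.67). NRPD1A, the large subunit of RNA polymerase IV, fell from 6.18 and 8.40 to 2.71 and 3.59 CPM (-1.21, SE 0.211).

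Of 6 kinetochore genes 4 rose and none fell. MAD2, of the spindle checkpoint, was at 4.24 and 4.29 CPM in 1n and 12.6 and 10.8 CPM in 2n (SE 0.168 around a log2 change of 1.46, edgeR adjusted p = 6.54e-05). The centromeric histone HTR12, also known as CENH3, did not pass (3.64 and 5.49 CPM against 5.62 and 5.19 CPM, edgeR adjusted p = 0.561). In DNA damage 4 of 9 rose and 1 fell. BRCA1, of DNA repair, rose by 1.03 on the log2 scale and SOG1, the central regulator, by 0.79 (9.15 and 8.21 CPM against 15 and 15 CPM). Without either 1n library, and in the 4 libraries alone, that list held 3 calls, all rises.

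TE transcripts made up a smaller part of the 1n libraries than of the 2n libraries. For every 1000 gene counts there were 9.08 and 9.19 TE counts in 1n and 11.1 and 11.4 in 2n. The DH6, DH9, DH14 and sDH libraries held 11.1 to 12.4. Of 31189 TEs 1372 (4.4%) had enough counts to be tested, and 225 of those rose (16.4%) while 139 fell (10.1%), with a median log2 change of 0.11. Scaled by TE library sizes in place of those of genes, 198 rose and 166 fell, with a median of 0.02. Without 2n library 2, 208 TEs changed, and in the 4 libraries alone 235 did, 145 higher and 90 lower. The TE with most counts, AT2TE18115, took 6.78 to 9.77% of the TE counts, and without it the ratios were 8.25 and 8.57 against 10.1 and 10.4 per 1000. That element was at 869 and 648 CPM in 1n and 1050 and 953 CPM in 2n (log2 change 0.40, edgeR adjusted p = 0.0364). Its call was lost without 1n library 2 (0.26), 2n library 1 (0.189) or 2n library 2 (0.0725), and in the 4 libraries alone (0.167). The next by counts, AT4TE59630, rose from 448 and 412 to 634 and 588 CPM (0.51, SE 0.0863, edgeR adjusted p = 0.000287), a call lost in the 4 libraries alone (0.0603).

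Between 1n and 2n, some elements were found wholly or mainly in 1 of the groups. AT3TE43945 had no count in either 1n library and stood at 7.74 and 8.24 CPM in 2n, at least 86.0-fold higher against a floor of 3 counts in the group (edgeR adjusted p = 0.00178). Its mean levels in DH6, DH9, DH14 and sDH were 21.3, 2.95, 0.0263 and 1.78 CPM. Libraries of 1 line lay far apart for this element, at 37.3 and 5.22 CPM in DH6 and 5.7 and 0.197 CPM in DH9. AT5TE48740 lay the other way, at 2.3 and 3.35 CPM in 1n and without a count in 2n, at least 36.6-fold lower (edgeR adjusted p = 2.25e-05). AT4TE09845 fell from 10.2 and 13.1 to 0.296 and 0.268 CPM (-5.34, SE 0.386, edgeR adjusted p = 3.07e-08), and AT2TE12220 rose from 0.303 and 0.442 to 4.98 and 6.85 CPM (3.97, SE 0.524). Over all TEs 136 had a count in both 2n and no 1n library, and 118 the reverse. Counts of TE copies and of TEs that overlap genes depend on the rule for shared reads and on the strand setting, neither of which is given in the sources used here.

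The doubled-haploid lines give the diploid level of a gene in other plants. Set against the mean of DH6, DH9 and DH14, 2716 genes were higher in 2n (14.1%) and 2424 lower (12.6%), with a median of -0.02. This comparison shares the 2n libraries with the one above, so only values are placed side by side. Without 2n library 1, 3203 genes changed there in place of 5140, and without 2n library 2, 2918 did. For division genes, 2n and the lines were alike in counts of calls: of 29 mitotic genes none was higher and 1 lower in 2n than in the lines (median -0.05), of 26 replication genes 4 were higher (0.08), and of 15 replication-coupled histones 2 (0.05). AUR1 had means of 16.3, 13.0, 12.4 and 13.1 CPM in DH6, DH9, DH14 and sDH, near the 2n libraries at 13.2 and 12.6 and above the 1n libraries at 4.67 and 4.86 CPM.

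Clock, light and stress genes set 2n apart from the lines as well. Of 11 morning genes 10 were lower in 2n than in the lines and 1 higher (median -2.94), and of 12 evening genes 8 were higher (0.58). PRR9 had means of 17.1, 6.33, 27.1 and 27.6 CPM in DH6, DH9, DH14 and sDH, below 1n at 41.9 and 36.7 CPM and above 2n at 0.887 and 0.749 CPM. Of 37 light-harvesting and photosystem genes 29 were lower in 2n than in the lines, of 17 rapid factors 15 were higher, and of 12 aliphatic glucosinolate genes 11 were lower. Salicylic acid genes, mixed against 1n, were higher in 2n than in the lines for 19 of 20. NIA2 stood at 275 and 276 CPM in DH6 and DH9, within the range of 2n, at 694 CPM in DH14 and at 341 CPM in sDH.

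**Figure D5:**
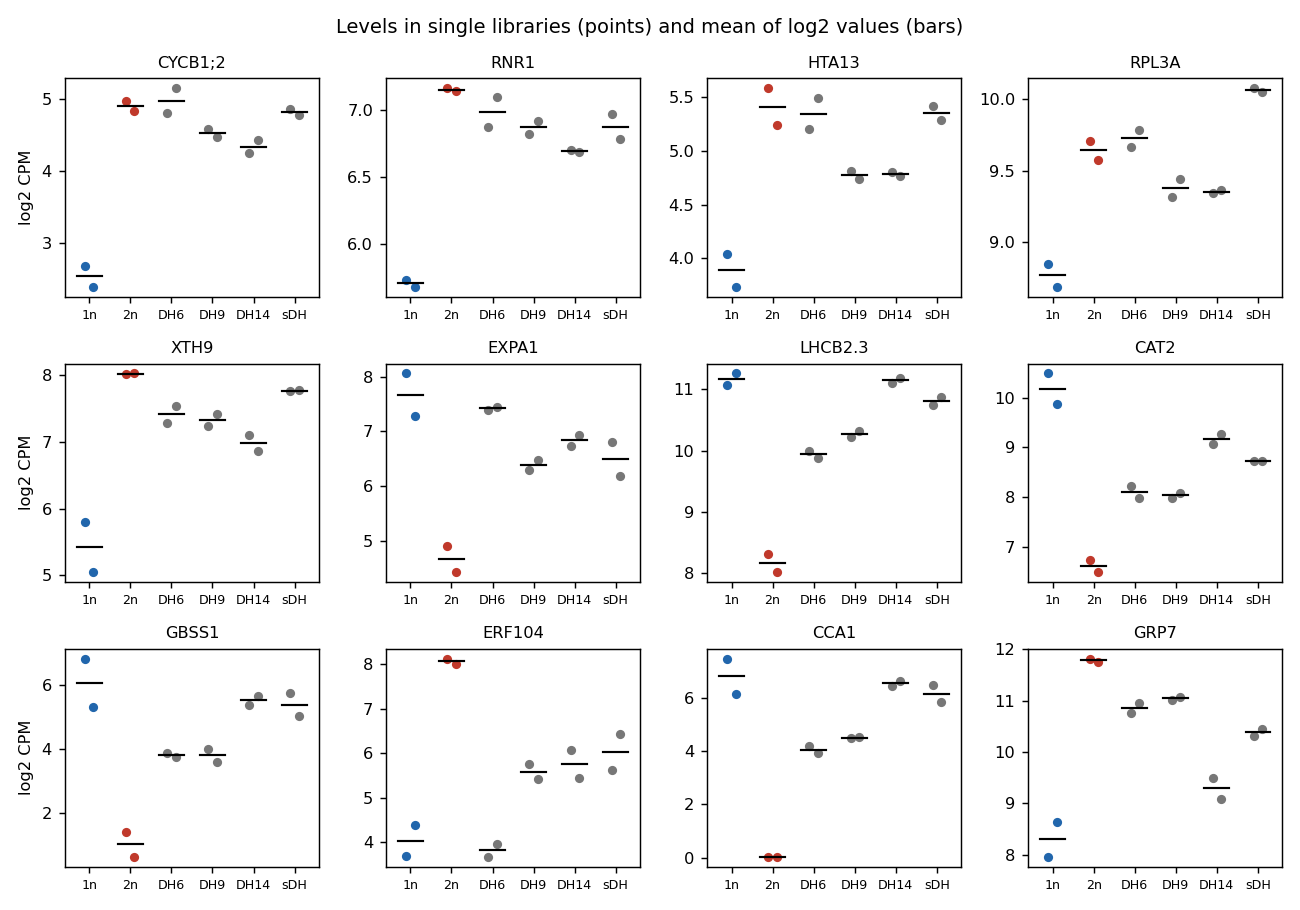
Level of 12 genes (log2 CPM, each panel with its own axis) in the single libraries of 1n (blue), 2n (red) and the other 4 groups (grey), with black bars at the mean of the log2 values. For CYCB1;2, RNR1, HTA13 and RPL3A the 1n libraries lie below all others, while for LHCB2.3, CAT2, GBSS1, CCA1 and EXPA1 the 2n libraries do.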

How the data were processed

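Gene and transposable element counts were deposited by the authors as whole-number counts per feature, unnormalised. The submitters' processing notes name HISAT2, Subread, DESeq2 and TAIR10 without saying which step each served. The 16 columns that repeat the 1n libraries in other tables were not used. Counts were tested with edgeR 4.0.16 and limma 3.58.1 in R 4.3.3: TMM scaling, the filterByExpr filter (minimum count 10, minimum total 15), a quasi-likelihood fit over the 12 RNA libraries in 6 groups of 2, the contrast 2n minus 1n, and Benjamini-Hochberg adjustment over all features. Transposable elements used the library sizes and factors of the genes. DESeq2 1.42.0, other scalings and filters, only the 4 libraries, a replicate block and leaving out each library were the alternatives. The fitting code was tested on simulated data.

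Of 27416 gene identifiers 26719 matched the TAIR10.1 table of names. The 53 gene lists held 917 entries, 35 of which had no matching name. The members and lists were chosen with earlier results of these data known. The rule for named genes asked for a call, no overlap and a mean count of at least 20 in the higher group. It took the 10 highest and 10 lowest changes of nuclear genes with a symbol, and up to 4 genes a list. Other genes were named after their values were seen. Intervals and floors cover counting error only. Promoter sequences were not used here.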

Additional observations from a re-analysis of the deposited data

How the results depend on the processing

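The 7852 changed genes became 4399 when only the 4 libraries of 2n and 1n were fitted, where 56.1% of the calls were kept, 22 of 53 lists had counts that differed by over 1.5 times and 23 of 224 named features lost their call. They numbered 7856 with RLE factors, 7836 with upper quartile scaling, 7798 with no filter, 7505 with a minimum count of 50, 6521 with DESeq2, and 5974 to 7304 with 1 library left out, which assumes that the lone library varies like the other groups. No gene called in both a setting and the main result had the opposite sign. Changes of at least 2-fold numbered 2377 to 2820 with 1 library left out. The 364 changed TEs (225 higher, 139 lower) split into 198 and 166 with TE library sizes and became 235 in the 4 libraries alone, 254 with DESeq2, 295 with no filter and 208 to 319 with 1 library left out. The 5140 genes that differed from the doubled-haploid lines numbered 2918 to 6170 with 1 library left out. The cause was not tested. Of single features, the log2 change of PR5 ran from -0.53 to 0.16 with 1 library left out and turned positive without 1n replicate 2 (0.16) and 2n replicate 2 (0.08). HTR12 ran from -0.02 (without 1n replicate 1) to 0.57, and AT1TE88825 from -0.02 (without 1n replicate 1) to 0.66. These values that changed sign did not pass the test.

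The labels give 1n and 2n the same replicate numbers but name no shared batch, and the deviations of same-numbered libraries correlated at 0.12, so the numbers were not taken as a pairing. With the replicate number as a block 8337 genes, 2778 of them at least 2-fold, 375 TEs and 5789 genes against the doubled-haploid lines were called. Depth limits transcripts of a few counts: 1 count stood for 0.0493 to 0.0632 CPM.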
